A study of Mus musculus with 28 samples.

Results

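The comparison set Tet2-E cells at day 10 of reprogramming to pluripotency against the mouse embryonic fibroblasts (MEFs) they came from, 4 ATAC-seq libraries against 4. These 8 of the 28 libraries of the series were chosen by their labels alone. The other libraries were used only where named. They are labelled as Tet2-E transduced cells of day 5, and Tet2-WT or empty vector transduced cells of days 5 and 10. Their genotype, culture and isolation are not described here. ATAC-seq marks open chromatin by letting a transposase cut accessible DNA, and each library came as a list of peaks. The Tet2-E day 10 group was made of Tet2-/- cells with OKSM; rtTA, a doxycycline-inducible set of reprogramming factors and its activator. They were transduced with a pMXs retrovirus for Tet2-E and kept on Mito-C feeder cells in 2i/LIF medium with doxycycline. They were then isolated by flow sorting on SSEA1-RFP. The MEF group was made of untreated MEFs of day 0, labelled as controls with no isolation step. The sources conflict on this group, since the design text lists day 0 among the times of transduced cells and the extraction protocol starts from sorted cells for all libraries. Whether the MEFs were transduced or sorted is therefore uncertain. Both groups are labelled with the strain background V6.5 129XBI/6 and embryonic day 12.5, and the series' design gives Tet2-/-, OKSM and rtTA for the MEFs as well, so both lack the cells' own Tet2. The regions carry no gene names, because no annotation of their genome build was used, so markers of fibroblasts or pluripotent cells were not analysed here. Feeder cells, medium and time, and by the sample labels also transduction and sorting, differ together between the groups and cannot be told apart. The feeder cells are themselves fibroblasts, and how many passed the sort was not tested. Whether the 4 replicates come from different cultures or animals is not stated, so any p-value reflects variation among libraries that may be technical only.

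TET enzymes oxidise the methyl group of 5-methylcytosine in DNA, first to 5-hydroxymethylcytosine and then further to forms that DNA repair can remove. The series calls Tet2-E a stalling mutant, meaning one that carries out the first step with little of the later ones. During reprogramming the enhancers of the fibroblast programme close and those of the pluripotent cell open, and SSEA1 is a surface sugar that appears on cells on the way to pluripotency. The comparison asks which chromatin has opened and which has closed when stalling Tet2 is the only TET2 in the cells.

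More open regions were lost than gained. Overlapping peaks of the 8 lists on chromosomes 1 to 19 and X were merged into 122473 regions, and a region counted as called by each library with a peak in it. A total of 32447 regions (26.5%) were called in Tet2-E day 10 libraries only, 61789 (50.5%) in MEF libraries only, and 28237 (23.1%) in both groups. Calls shared by a whole group were fewer. The 4 Tet2-E day 10 libraries had 15501 regions in common and the 4 MEF libraries had 27911. Of the regions common to Tet2-E day 10, 25.4% were in no MEF library. Of those common to MEFs, 44.9% were in no Tet2-E day 10 library. A core of 9365 regions was called in 8 of 8 libraries.

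The number of calling libraries was compared by a 2-sided Fisher's exact test. With 4 libraries a side, only a region called in exactly 4 of the 8 can reach p under 0.05, and only by being in 4 of 4 libraries of one group and 0 of 4 of the other. Among the 19483 regions in exactly 4 libraries, 3940 were gained (20.2%) and 12536 were lost (64.3%), together 84.6% of those tested (Fisher's exact p = 0.0286, Benjamini-Hochberg adjusted p = 0.0338 for each). The other 3007 were called by a mixture of both groups. All complete changes share a single p, so they pass or fail together. Adjusted over the 74052 regions in at least 2 libraries, the same 16476 regions had an adjusted p of 0.128 and none passed. When any 1 of the 4 Tet2-E day 10 libraries was left out, none passed either (adjusted p from 0.0511 to 0.0524). The tested sets were then larger, with 32048 to 33209 regions. Of these, 17490 to 18584 had an unadjusted Fisher's exact p under 0.05, more than the 16476 of the main test. Leaving out any 1 of the 4 MEF libraries kept both calls, with 3982 to 4257 regions gained and 12889 to 17152 lost (adjusted p from 0.0445 to 0.0475). Those tested sets held 28519 to 32915 regions.

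**Figure D1:**
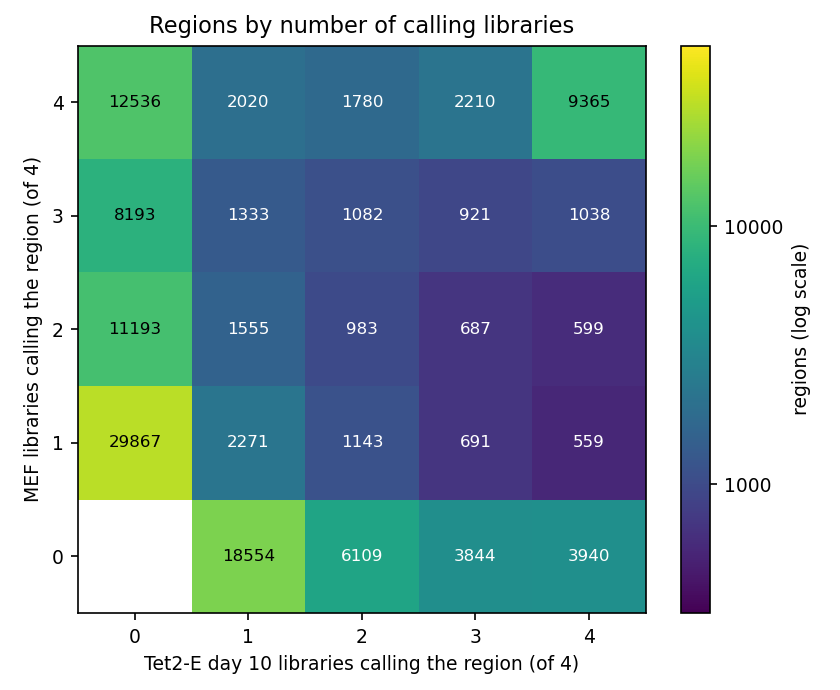
Regions by the number of Tet2-E day 10 libraries (horizontal axis, of 4) and MEF libraries (vertical axis, of 4) that called them, with the count in each cell and a log colour scale. The corners hold 3940 gained, 12536 lost and 9365 regions in 8 of 8 libraries, and cells with a mixture in both groups hold fewer.

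The split between gain and loss depended on list length. Of the 16476 called regions, 76.1% were lost. With the 27809 peaks of lowest p in every library, the counts were 3936 gained and 6685 lost, so losses made up 62.9% (Fisher's exact adjusted p = 0.0333). Of the 3940 gained regions, 77.0% overlapped a gained region of these equal lists, and 48.5% of the 12536 lost regions overlapped a lost one. Where peaks had to span 50% or more of a region, gains numbered 1498 and losses 9588, a share of 86.5%.

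The Tet2-E day 10 lists were shorter and their peaks narrower, while their relative depth overlapped that of MEFs. Replicates 1 to 4 held 45871, 40949, 32575 and 27809 peaks in Tet2-E day 10 cells, against 72140, 41345, 56538 and 52159 in MEFs. Means were 36801 ± 8128 peaks in Tet2-E day 10 libraries and 55546 ± 12774 in MEF libraries (SD, n = 4 each; exact permutation p = 0.0571, adjusted p = 0.0714 over 5 measures). The groups overlapped in this measure, since Tet2-E day 10 replicate 1 lay above MEF replicate 2. Lists of the other vectors at day 10 were of similar length, with means of 36570 ± 4049 peaks for the empty vector and 39595 ± 8349 for Tet2-WT (SD, n = 4 each). Peaks covered 7.18 ± 2.27 Mb per Tet2-E day 10 library and 13.6 ± 3.43 Mb per MEF library (SD, n = 4 each; exact permutation p = 0.0286, which is the minimum, adjusted p = 0.0476). The median peak width was 158, 168, 137 and 137 bp in Tet2-E day 10 replicates 1 to 4 and 198, 209, 186 and 185 bp in MEF replicates 1 to 4. All 4 Tet2-E day 10 values were below all 4 MEF values (150 ± 15.6 bp against 194.5 ± 11.3 bp, SD, n = 4 each; exact permutation p = 0.0286, adjusted p = 0.0476). Leaving out Tet2-E day 10 replicate 2, 3 or 4 or MEF replicate 1 put covered length and width past an adjusted p of 0.05, with differences of -4.83 to -6.97 Mb and -40.2 to -50.5 bp, and leaving out MEF replicate 2 did so for width (-39.7 bp).

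Relative depth was read from the background pileup, the level that the peak caller expected without a peak, solved for each peak from its deposited fold and p. The value given for a library is its most common one, held by 9.08% to 27.6% of the peaks in the 8 lists, with at most 0.0748% of peaks below it and the others above. It was 0.768, 0.636, 0.466 and 0.361 in Tet2-E day 10 replicates 1 to 4 and 0.66, 0.394, 0.501 and 0.458 in MEF replicates 1 to 4. The highest and the lowest of the 8 values both belonged to Tet2-E day 10, and the means did not differ beyond the spread (0.558 ± 0.18 against 0.503 ± 0.113, SD, n = 4 each; exact permutation p = 0.686). The Tet2-E day 10 library with the highest pileup, replicate 1, called 49.6% of the 27911 regions common to MEFs, and the one with the lowest, replicate 4, called 39.6%. With only the 2 Tet2-E day 10 libraries of highest pileup, a count added after the data were seen, 13022 regions common to MEFs were in neither of them, which is 46.7% of those common to MEFs. A gain there needs calls in only 2 libraries, and 10161 regions met that, a lost share of 56.2%. Fisher's exact test of 2 against 4 libraries allows no p under 0.0667. Whether depth or signal strength shaped these counts was not tested.

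**Figure D2:**
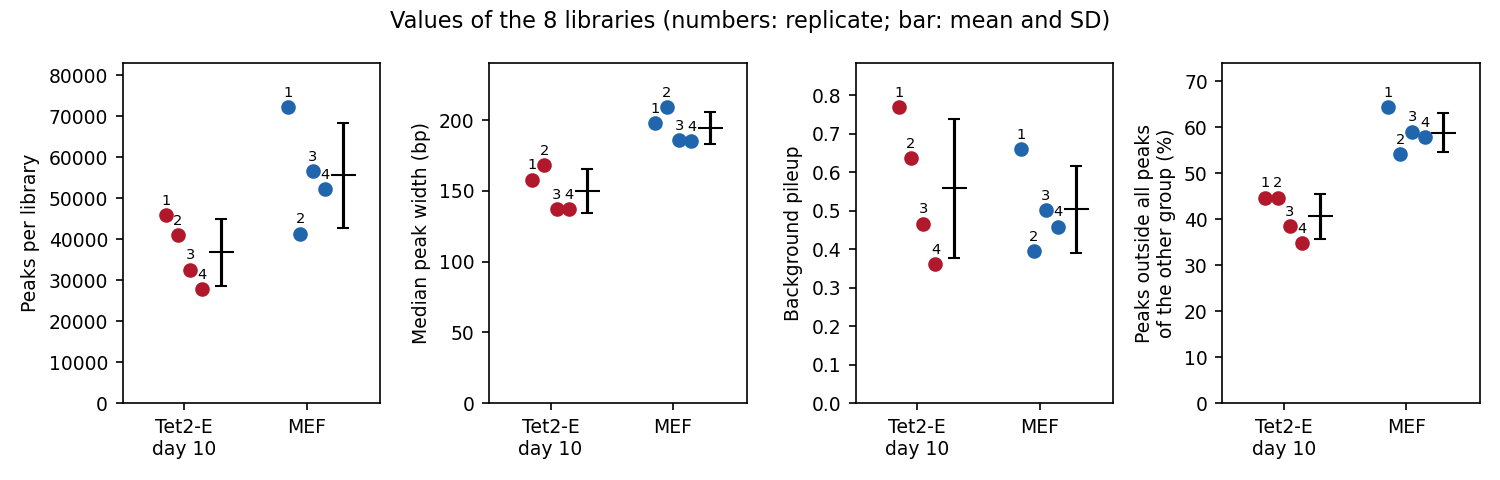
Peaks per library, median peak width in bp, background pileup and percent of peaks outside all peaks of the other group, for the 4 Tet2-E day 10 libraries (left of each panel) and the 4 MEF libraries, with replicate numbers, mean and SD. Widths and outside shares do not overlap between the groups, while background pileups run from 0.361 to 0.768 in Tet2-E day 10 and from 0.394 to 0.66 in MEFs.

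Each list was also compared with the pooled peaks of the other group. In Tet2-E day 10 replicates 1 to 4, 44.6%, 44.7%, 38.4% and 34.7% of peaks lay outside all MEF peaks, whereas 64.3%, 54.2%, 59.0% and 57.8% of peaks in MEF replicates 1 to 4 lay outside all Tet2-E day 10 peaks. The groups did not overlap (40.6% ± 4.91 against 58.8% ± 4.19, SD, n = 4 each; exact permutation p = 0.0286, adjusted p = 0.0476). Without Tet2-E day 10 replicate 2, 3 or 4 or MEF replicate 1 the difference, -12.5 to -22.1 percentage points, had an adjusted p of 0.0714 by the exact permutation test. With equal lists the difference shrank to -4.71 percentage points, where p was still the smallest possible (exact permutation p = 0.0286). By the Jaccard index, the base pairs shared by 2 lists over those covered by either, Tet2-E day 10 libraries shared 0.366 to 0.466 with each other, MEF libraries 0.421 to 0.482, and pairs across the groups 0.149 to 0.23.

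Calls of partly shared regions followed the background pileup within each group. Peak counts of the libraries stood in the same order, so depth and list length cannot be told apart here. A set of 6010 regions was common to MEFs and called in 1 to 3 Tet2-E day 10 libraries. Replicates 1, 2, 3 and 4 of Tet2-E day 10 called 74.4%, 61.9%, 38.9% and 28% of it, in the order of their background pileup. The reverse set, common to Tet2-E day 10 and in 1 to 3 MEF libraries, held 2196 regions. MEF replicates 1, 3, 4 and 2, ordered by pileup, called 82.7%, 61.0%, 52.0% and 26.2% of it. Regions found in a single library made up 39.5% of all merged regions, and MEF replicate 1 alone accounted for 15842 of these 48421.

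Gained and lost regions had similar median widths. Gained regions had a median width of 356 bp and lost regions of 359 bp, against 622 bp in 8 of 8 libraries and 194 bp over all merged regions. The fold of a peak, the authors' peak caller's ratio of summit pileup to local background, describes strength within a list only. Its median was 7.53 for gained regions in Tet2-E day 10 cells and 8.52 for lost regions in MEFs, against 6.24 and 6.29 over all regions called in Tet2-E day 10 and in MEF libraries. In regions of 8 of 8 libraries the medians were 8.66 in Tet2-E day 10 and 9.57 in MEFs. The nearest other gained region lay a median of 126 kb from a gained region, and 7.41% had one within 10 kb. For lost regions the gap to the nearest other lost region was 40.4 kb, and 17.7% had one within 10 kb, but lost regions were also more numerous. The nearest lost region lay a median of 57.8 kb from a gained region and 58.4 kb from a region in 8 of 8 libraries. The nearest region in 8 of 8 libraries lay 68.3 kb from a gained and 91.9 kb from a lost region.

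Strong and broad regions were less often complete changes. The regions common to each group were split into 4 sets of near-equal size by their median fold in that group. From the lowest set (median fold 6.32) to the highest (10.8), 33.9%, 30.7%, 25.2% and 11.9% of the regions common to Tet2-E day 10 were in no MEF library. For regions common to MEFs, 48.3%, 46.7%, 44.9% and 39.8% were in no Tet2-E day 10 library. The decline with fold was thus steeper for gains than for losses in these counts, and that difference was not tested. Losses reached far into the strong MEF regions. Of 9320 regions common to MEFs with a median MEF fold of at least 10, 3800 (40.8%) were lost. Of the 3080 regions common to Tet2-E day 10 with a Tet2-E fold of at least 10, 331 (10.7%) were gained. These shares are not on one scale, because the fold belongs to its own list. The highest set began at a fold of 10.8 in MEFs and 9.58 in Tet2-E day 10.

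The lost share of MEF regions varied more with breadth than with fold in these counts, a difference that was not tested. Split by the median number of base pairs that MEF peaks covered in a region, 61.6%, 59.0%, 42.7% and 16.4% of regions common to MEFs were lost, from the narrowest set (median 172.5 bp covered) to the broadest (534 bp). In the same sets, 10.4%, 18.2%, 36.2% and 69.4% were in 4 of 4 Tet2-E day 10 libraries. For regions common to Tet2-E day 10, split by the base pairs covered in Tet2-E day 10 libraries, 32.6%, 33.1%, 24.8% and 11.2% were gained. Whether narrow regions were missed more often at low depth was not tested.

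**Figure D3:**
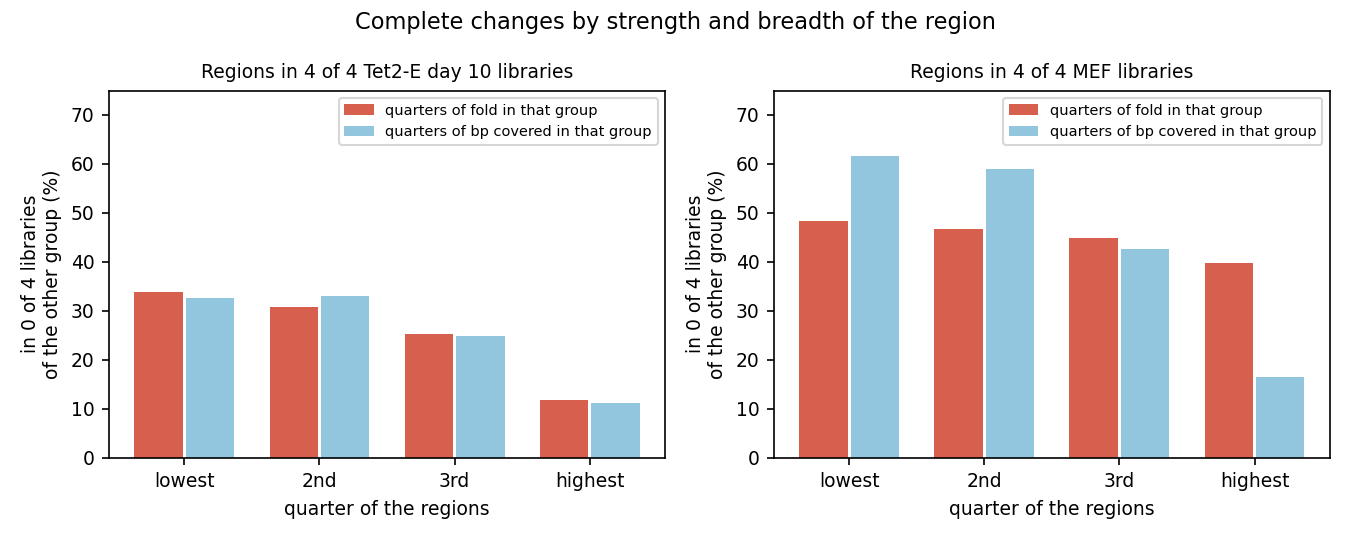
Percent of regions that were in 0 of 4 libraries of the other group, for regions common to Tet2-E day 10 (left) and to MEFs (right), in 4 sets of near-equal size, lowest to highest, by median fold (red) and by median base pairs covered (blue) in their own group. The share fell to 11.9% and 11.2% in the highest sets of Tet2-E day 10, and to 39.8% by fold and 16.4% by coverage in the highest sets of MEFs.

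In the core of 9365 regions, peaks covered less of each region in Tet2-E day 10 cells. Per library, Tet2-E day 10 peaks covered a median of 381, 360, 282 and 255 bp of such a region in replicates 1 to 4, and MEF peaks covered 509, 391, 425 and 409 bp. Every MEF library exceeded every Tet2-E day 10 library. The median summit positions of the groups were 28 bp apart at the median, within 50 bp in 69.2% of the core regions and beyond 200 bp in 5.33%. By fold the core was led by chr11:121843640-121843881, where folds ran from 32.6 to 38.2 in Tet2-E day 10 libraries and from 33.3 to 40.5 in MEF libraries. It was followed by chr6:49186420-49186636, chr5:152537096-152537314, chr1:104524738-104524938 and chr5:60433961-60434331. All 5 were called in the other 20 libraries too. They were 201 to 371 bp wide, below the core's median width.

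Gained regions were led by fold by chr8:87635749-87635886 (mm9, the build named for the deposited data). Folds there were 15.3, 15.3, 12.9 and 17.6 in Tet2-E day 10 replicates 1 to 4, and no MEF library called it. The region chr14:112918076-112918233 had 11.9, 15.9, 15.7 and 13.2, chr5:16474563-16475003 had 15.1, 14.3, 14.2 and 13.9, and chr6:5657923-5658284 had 13.4, 17.5, 14.5 and 13.2 in the same order, again with no MEF peak. The next 6 were chr12:81542359-81542515 (median fold 13.7), chr4:138894021-138894326 (13.5) and chr4:129117937-129118250 (13.5), chr19:4810346-4810686 (13.3), chr9:79678689-79679046 (13.2) and chr1:135564261-135564632 (13.1). The widest spread among these was on chromosome 4 at 129117937, with 17.6, 8.27, 11 and 16 in replicates 1 to 4. All 10 were in 4 of 4 Tet2-E day 10 and 0 of 4 MEF libraries (Fisher's exact p = 0.0286, adjusted p = 0.0338), and all 10 were also in every one of the 20 day 5 and other day 10 libraries.

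The 10 leading lost regions had median folds of 20.6 to 22.4 in MEFs. The region chr8:95230238-95230549 came first, with folds of 22.4, 22.0, 22.3 and 24.0 in MEF replicates 1 to 4, and no Tet2-E day 10 library called it. The region chr8:69205087-69205649 had 22.2, 21.6, 18.1 and 22.2 in MEFs. The region chr9:73800185-73800543 had 27.9, 14.2, 21.4 and 22.2 in MEFs, the widest spread of the 10. It was followed by chr6:122565815-122566128 (median fold 21.1), chr1:29875694-29876086 (21.1), chr3:126671455-126672020 (21.0), chr8:63343696-63344070 (20.9), chr7:77411855-77412332 (20.8), chr6:96003486-96003805 (20.6) and chr1:14474378-14475025 (20.6). All 10 were in 0 of 4 Tet2-E day 10 and 4 of 4 MEF libraries (Fisher's exact p = 0.0286, adjusted p = 0.0338). These 10 were not all uncalled at day 5. In Tet2-E day 5 libraries, 6 of them were called in 0 of 4 and chromosome 3 at 126671455 in 2. The 3 at chromosome 8 69205087, chromosome 7 77411855 and chromosome 1 14474378 were called in 3 of 4. Of those 6, the first-ranked region was called in 4 of 4 empty vector and 2 of 4 Tet2-WT day 5 libraries. Chromosome 9 at 73800185 and chromosome 1 at 29875694 were called in 1 and 2 of 4, in the same order, and the others of the 6 in none.

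The day 5 libraries had no part in choosing the regions, so their calls give the state of these regions midway. Tet2-E day 5 replicates 1 to 4 called 91.5%, 93.5%, 90.4% and 86.4% of the 3940 gained regions and 9.77%, 13.4%, 6.57% and 7.40% of the 12536 lost ones. Their background pileups, 0.792 to 0.919, were above those of every Tet2-E day 10 and MEF library. In 4 of 4 Tet2-E day 5 libraries stood 3140 gained regions (79.7%), and in 0 of 4 stood 9715 lost regions (77.5%). Few gained regions were absent at day 5, with 86 in 0 of 4 Tet2-E day 5 libraries. Few lost regions were still fully called at day 5, with 146 in 4 of 4. Gained regions already in 4 of 4 had a median width of 371.5 bp and a median fold of 7.77, against 293.5 bp and 6.70 for the 86 late ones. Lost regions still in 4 of 4 at day 5 were 429 bp wide at the median, against 349 bp for those already in 0 of 4.

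No difference between vectors passed at day 5. Gained regions were called at 90.5% ± 3.00 in Tet2-E day 5 libraries, 92% ± 1.52 in Tet2-WT day 5 libraries and 89.8% ± 1.79 in empty vector day 5 libraries (SD, n = 4 each). Lost regions were called at 9.28% ± 3.05, 13.6% ± 5.6 and 13.8% ± 8.10 in the same order (SD, n = 4 each). None of the 4 contrasts of Tet2-E day 5 with another vector passed (exact permutation p from 0.2 to 0.771, lowest adjusted p = 0.648). Differences were 0.628 percentage points against the empty vector and -1.55 against Tet2-WT for gained regions, and -4.50 and -4.30 for lost regions. The regions were chosen on Tet2-E day 10 libraries, so these contrasts are not independent of the vector. Lost regions were called unevenly among libraries of the other vectors. Replicates 1 to 4 called 9.90%, 8.41%, 20.7% and 15.3% with Tet2-WT and 6.55%, 7.39%, 22.9% and 18.2% with the empty vector. The lists of replicates 3 and 4 were the longer ones in both groups (49642 to 60154 peaks, against 42539 to 48936 in the other replicates).

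**Figure D4:**
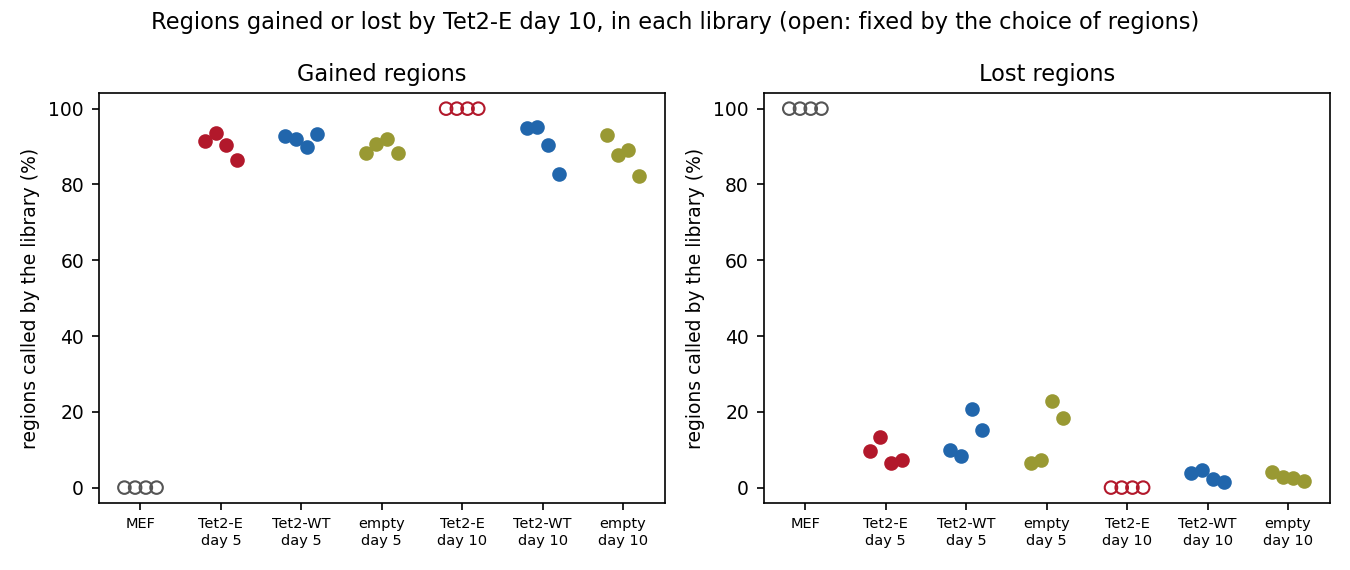
Percent of the 3940 gained (left) and 12536 lost regions (right) called by each of the 28 libraries, in time order and by vector. Open points, for MEF and Tet2-E day 10, are fixed at 0 or 100% by the choice of regions. Day 5 libraries call 86.4% to 93.5% of gained regions and 6.55% to 22.9% of lost ones.

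Late movers were named after their values were seen. Among the 86 late gains the highest folds lay on chr19:56989577-56989872, with 12.1, 10.1, 5.41 and 10.4 in Tet2-E day 10 replicates 1 to 4, on chr2:143715730-143716063 with 10.4, 9.12, 8.19 and 9.74, and on chr9:121324731-121325112 with 11.9, 10.8, 6.81 and 7.95. In the Tet2-WT and empty vector day 10 libraries these 3 were called in 4 of 4, apart from chromosome 2 with the empty vector (3 of 4). Replicate 3 had the lowest fold in each. At day 5, chromosome 9 at 121324731 was already called in 2 of 4 Tet2-WT and 1 of 4 empty vector libraries, and the others in none. Of all 86, 37 were in 4 of 4 Tet2-WT day 10 libraries and 24 in 4 of 4 empty vector day 10 libraries, against 74.2% and 68.7% of all gained regions, and 2 were in 0 of 4 libraries of each vector. Among the 146 late losses the highest MEF folds lay on chr8:60067986-60068504 (20.1, 15.6, 15.3 and 20.6 in MEF replicates 1 to 4), on chr11:51893501-51893974 (16.3, 13.8, 16.7 and 17.3) and on chr1:178757567-178758218 (17.3, 10.3, 14.9 and 18.7). These were still called in 1 to 3 libraries of each other vector at day 10. Of all 146, 49 were in 0 of 4 Tet2-WT day 10 libraries and 54 in 0 of 4 empty vector day 10 libraries. Over all lost regions, 90.6% and 91.4% were in 0 of 4, in the same order.

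Most gained regions were also called, and most lost regions uncalled, with the other vectors at day 10. Gained regions of Tet2-E were called at 90.7% ± 5.85 in Tet2-WT day 10 libraries and 88.1% ± 4.47 in empty vector day 10 libraries, and lost regions at 3.14% ± 1.48 and 2.87% ± 0.970 (SD, n = 4 each). Because the regions were chosen on Tet2-E libraries, its own values are fixed and no test was made. Of the gained regions, 2922 were in 4 of 4 Tet2-WT day 10 libraries and 2706 in 4 of 4 empty vector day 10 libraries, and 1978 were in all 20 libraries outside the comparison. Of the lost regions, 10789 (86.1%) were in none of the 8 other day 10 libraries, and 6382 in none of the 20. Each vector's own comparison with the shared MEF libraries gave 3940 gained and 12536 lost regions for Tet2-E, 4859 (23.9%) and 12309 (60.6%) for Tet2-WT, and 4018 (20.7%) and 12482 (64.3%) for the empty vector, as shares of the regions tested. Their lost shares were 76.1%, 71.7% and 75.6%.

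No region passed a direct test of Tet2-E against another vector at day 10, but this test could hardly pass any. All complete changes again share a single p, so none can pass unless they make up most of the tested regions. Here they were 1.82% of the regions tested against Tet2-WT and 1.97% of those tested against the empty vector. Of 5508 regions in exactly 4 of 8 Tet2-E and Tet2-WT day 10 libraries, 34 were in 4 of 4 Tet2-E only and 66 in 4 of 4 Tet2-WT only, so 100 had an unadjusted p under 0.05 and 0 passed (Fisher's exact test, adjusted p = 1). Against the empty vector, 57 of 5223 were in 4 of 4 Tet2-E only and 46 in 4 of 4 empty vector only, 103 in all with an unadjusted p under 0.05, and 0 passed (Fisher's exact test, adjusted p = 1). Regions chosen without any day 10 library were then compared. Of 27905 regions merged from MEF and day 5 lists and called in all 4 MEF libraries, 44.7% ± 4.53 were called in Tet2-E day 10 libraries, 45.5% ± 3.88 with Tet2-WT and 44.9% ± 2.33 with the empty vector (SD, n = 4 each). Of 9122 regions seen in 10 or more of the 12 day 5 libraries and in 0 of 4 MEF libraries, 67.5% ± 12.2, 70.4% ± 8.76 and 66.6% ± 5.83 were still called (SD, n = 4 each). The 4 contrasts had exact permutation p from 0.686 to 0.886 (adjusted p = 0.886), and the largest difference was -2.86 percentage points, against Tet2-WT in the second set. Neither these p-values nor the direct tests show that the vectors act alike.

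Only 2 gained regions were called in none of the 8 other day 10 libraries, and 1 lost region was called in all 8, all 3 named after their values were seen. The region chr8:121492481-121492658 had folds of 6.44, 7.34, 5.39 and 6.05 in Tet2-E day 10 replicates 1 to 4, and chr4:132495457-132495613 had 4.51, 5.99, 5.24 and 7.04. Both had some day 5 calls. The first was called in 2 of 4 Tet2-E and 1 of 4 empty vector day 5 libraries. The second was called in 1 of 4 Tet2-E and 2 of 4 Tet2-WT day 5 libraries. They were 178 and 157 bp wide. The lost region, chr4:49858492-49858789, had folds of 9.61, 8.96, 11 and 9.2 in MEF replicates 1 to 4. It was called in 3 of 4 Tet2-E day 5 libraries and in 4 of 4 of each other vector at day 5.

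Lost regions were spread over most of the genome. In windows of 1 Mb, 2564 windows held a merged region, 1639 held a gained region, 2265 a lost one (88.3%) and 1562 both. Lost regions stood in 95.3% of the windows with a gained region and in 76% of those without, which was not tested. The 10% of windows with most gained regions held 34.4% of all gained ones, and the corresponding shares were 24.7% for lost and 37.4% for core regions. Counts per window were small, with a median of 1 gained and 4 lost. The most lost regions lay on chr6:17000001-18000000, where 22 of 33 regions common to MEFs were lost and 0 gained. There 17 of the 22 were already in 0 of 4 Tet2-E day 5 libraries and 20 in 0 of 8 other day 10 libraries. Over all lost regions these shares were 77.5% and 86.1%, so the counts do not set the window apart. The window chr8:129000001-130000000 held 20 lost regions among 38 common to MEFs and 5 gained, and chr15:64000001-65000000 held 19 among 21 and 1 gained. Next came chr5:104000001-105000000 (18 lost, 5 gained) and chr8:126000001-127000000 (17 lost, 9 gained).

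The 5 windows with most gained regions held between 3 and 17 lost ones, where the median over all windows was 4. The window chr11:113000001-114000000 held 10 gained among 14 regions common to Tet2-E day 10, and 14 lost among 22 common to MEFs. The window chr3:86000001-87000000 held 9 gained and 3 lost. All 9 gained were in 4 of 4 Tet2-E day 5 libraries, as were 79.7% of all gained regions. The window chr6:122000001-123000000 held 9 gained and 6 lost, among them the lost region at 122565815 with its median MEF fold of 21.1. Of its gained regions 6 were in 4 of 4 Tet2-E day 5 libraries, and the one with the highest fold lay at 122316193 to 122316627 (10.8). The window chr8:126000001-127000000 was among the first 5 windows for both directions, and chr11:88000001-89000000 held 9 gained and 3 lost.

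Losses outnumbered gains on all 20 chromosomes. Lost regions per gained region ran from 2.55 on chromosome 17 to 4.13 on chromosome 18. The X chromosome had the lowest shares of both kinds. There 59 of 323 regions common to Tet2-E day 10 were gained (18.3%) and 214 of 601 common to MEFs were lost (35.6%). Its leading gained region lay at 104183174 to 104183513 (median fold 12.1) and its leading lost region at 65616574 to 65616748 (19.5), the second called in none of the other 20 libraries. Chromosome 14 had the highest gained share, 30.3%, and chromosome 18 the highest lost share, 52.8%. Chromosomes 7, 11, 17 and 19 were among those low in both. Their gained shares were 21.3%, 21.5%, 23.2% and 21.0%, and their lost shares 36.1%, 38.2%, 38.7% and 40.3%.

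**Figure D5:**
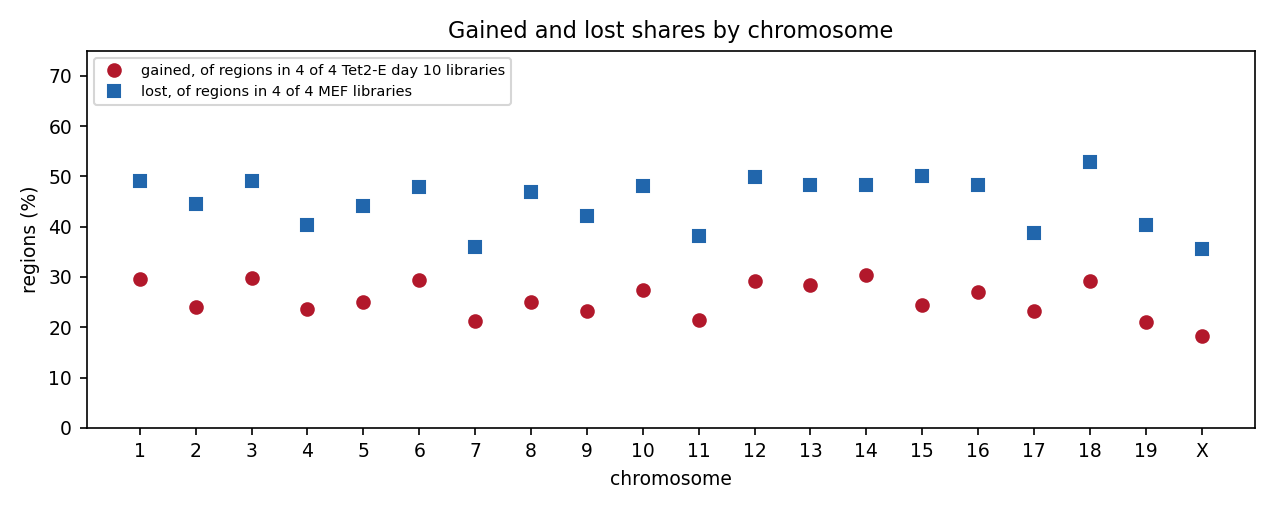
Percent of regions common to Tet2-E day 10 that were gained (circles) and of regions common to MEFs that were lost (squares), by chromosome. Lost shares run from 35.6% on X to 52.8% on chromosome 18, and gained shares from 18.3% on X to 30.3% on chromosome 14.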

How the data were processed

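ATAC-seq peak lists of 8 libraries, 4 of Tet2-E day 10 and 4 of MEF, were analysed, with the other 20 used only where named. Per the submitters' processing notes, Bowtie2, SAMtools, bedtools, MACS2 and the genome build mm9 were used. The sources used here do not give their versions, settings, filters or any shift of transposase cuts. Each deposited list gives, per peak, the authors' fold (a ratio to local background), −log10 p, −log10 q, an integer score and the summit's offset from the peak start. The lowest deposited −log10 q was 2.0001, so lists were limited to q of about 0.01. Peaks outside the 20 chromosomes used were left out (105 to 192 per library), which left 369386 peaks in the 8 lists. No read counts come with the lists, so total depth is unknown. A whole-number summit pileup and a background were solved for each peak from its fold and p, with a solution for 100% of peaks (tolerance 0.0002 in −log10 p). The most common background of a library, held by 9.08% to 27.6% of its peaks in the 8 lists, served as relative depth.

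Peaks were merged at an overlap of at least 1 bp, and presence was scored per library. Regions in exactly 4 of 8 libraries were tested by 2-sided Fisher's exact tests with Benjamini-Hochberg adjustment at 0.05. Single values of each library went into 2-sided exact permutation tests, whose smallest p with 4 against 4 is 0.0286, adjusted within each family. The fold belongs to its own list and was used only to describe and rank. Named regions were the 10 gained and 10 lost with the highest median fold in the calling group, the 5 leading core regions, and the 5 windows of 1 Mb with most of each. Motif and gene locus counts were planned and not run, since no genome or annotation of that build was used. Scripts were checked on simulated data. Members and lists were chosen with earlier results of these data known. Alternatives were a 50% cover rule, equal lists, −log10 q of at least 5, wider sets of tested regions, summit windows of 100 bp to each side, a replicate block and leaving out each library. Python 3.11.15, numpy 2.4.6, pandas 2.3.3, scipy 1.17.1 and matplotlib 3.10.9 were used.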

Additional observations from a re-analysis of the deposited data

How the results depend on the processing

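The excess of losses over gains kept its direction under every alternative that made calls, while the counts moved. Where peaks had to span 50% or more of a region, 1498 regions were gained and 9588 lost, and the lost share was 86.5%. That rule was harder for Tet2-E day 10 libraries to meet. Even in core regions their peaks covered a median of 43.8% to 64.4% per library, against 66.4% to 84.9% in MEF libraries. With equal lists, 3936 were gained and 6685 lost (62.9%). With the 2 Tet2-E day 10 libraries of highest pileup, added after the data were seen, the complete changes were 10161 gained and 13022 lost (56.2%). A −log10 q of at least 5 gave 2852 gained and 10546 lost, and summit windows 4022 and 12384. By construction all complete changes share a single p. Testing all regions of 2 or more libraries gave 0 gains and 0 losses (Fisher's exact adjusted p = 0.128), and over every merged region 0 and 0 (adjusted p = 0.212), with 16476 regions at an unadjusted p under 0.05 in both. The cause of the other shifts was not tested.

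Leaving out 1 library gave 0 to 4257 gained and 0 to 17152 lost regions, with the zeros for each Tet2-E day 10 library (adjusted p from 0.0511 to 0.0524), and a lost share of 75.2% to 81.2% where calls were made. The tested sets were larger in all these fits (28519 to 33209 regions, against 19483). Differences per library ran from -23478 to -13213 peaks, -7.47 to -4.83 Mb, -50.5 to -39.7 bp, -0.0156 to 0.12 in background pileup and -23.5 to -12.5 percentage points outside the other group. The sign of the background pileup turned without Tet2-E day 10 replicate 1 (-0.0156), and peaks passed without MEF replicate 2 (-23478, exact permutation adjusted p = 0.0476). The outside share missed an adjusted p of 0.05 without Tet2-E day 10 replicate 2, 3 or 4 or MEF replicate 1. Day 10 contrasts, none of which passed, ran from -1.94 to 1.38 (empty vector) and -2.57 to 0.747 (Tet2-WT) percentage points for MEF regions, and from -3.41 to 5.69 and -7.15 to 1.94 for early regions. Their signs changed in 10 of these fits. Day 5 contrasts ran from -0.389 to 1.98 and -2.57 to -0.197 for gained regions and from -6.91 to -1.45 and -6.02 to -1.92 for lost ones, in the same order, with 1 change of sign.

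The replicate block left 0 gained and 0 lost regions (adjusted p = 0.148, 0 at an unadjusted p under 0.05) because 4 pairs are too few for an exact p under 0.05. Covered length (-6.45 Mb), width (-44.5 bp) and outside share (-18.2 percentage points) then had an adjusted p of 0.156. Same-numbered libraries did not deviate together (r = -0.088, 0.0541, -8.97e-05 and -0.029 for replicates 1 to 4). Whether they share a culture or animal is not stated, and these values cannot decide it. Depth is known only as background pileup, so a region absent from a list was not detected at that depth, and closure cannot be told apart from a signal below the threshold.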
